A study of Sus scrofa with 10 samples.

Results

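The genes described here are those of the interferon response and of the JAK-STAT pathway in the pig hypothalamus. They were chosen by gene name alone, as rows named for IFIT, ISG, MX, OAS, IFI, IFITM, GBP, IRF, STAT, JAK, SOCS and PIAS family members, RSAD2, TYK2, the RNA sensors DDX58 and DHX58 and the interferon receptor chains, with an estimate marked OK in both groups. The choice gave 61 of 25009 gene rows, which carry 55 different symbols. Roles were also assigned by name, without a check that each effector, IFITM5 among them, is induced by interferon. There were 24 rows of interferon-induced effectors, 2 of RNA sensors, 8 of IRF transcription factors and 2 of interferon receptors. A further 4 rows were Janus kinases, 11 STATs, 7 SOCS and 3 PIAS genes. Hypothalamic RNA was sequenced from 10 Iberian x Landrace backcross pigs, 5 with high growth and fatness (the high-growth pigs) and 5 with low growth and fatness (the low-growth pigs). No treatment, age or sex is given in the sources used here. Hypothalamic peptide genes were present in both groups, with AVP at 472 FPKM in the high-growth pigs and 354 FPKM in the low-growth pigs, and PMCH at 167 and 91.8 FPKM.

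Interferons bind receptors that carry Janus kinases. The kinases phosphorylate STAT proteins, which enter the nucleus. Type I interferon acts mainly through ISGF3, a complex of STAT proteins with IRF9 that binds the promoters of antiviral genes, while interferon gamma acts through STAT dimers that induce IRF1 and the GBP genes. The same kinases and STATs serve leptin, growth hormone and prolactin in the hypothalamus, where STAT3 carries the leptin signal, STAT5 the growth hormone and prolactin signals, and SOCS3 restrains leptin signalling. In brain, microglia and endothelial cells are strong sources of interferon-induced transcripts.

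Each row had 1 value per group in FPKM (fragment counts scaled to transcript length and library size) with a deposited lower and upper bound, given here in parentheses. There were no values per animal, so no difference below has a replicate check and none was tested, and the depth of each sample is unknown. Rows were compared where the mean of both groups reached 1 FPKM and both values were above 0, which held for 15156 rows and 53 of the 61 members. Differences were taken as log2(FPKM + 1) in the high-growth minus the low-growth pigs, so changes of weakly expressed genes appear smaller than their ratios. The median difference over all compared rows was -0.10, and 68.0% of them had the higher value in the low-growth pigs. Median-of-ratios scaling, which centres the groups on each other, moved that median to 0.00036. Calls of at least 1.5-fold over all rows, 976 higher in the low-growth pigs and 421 higher in the high-growth pigs, became 654 and 664 after it, and 696 and 579 after quantile normalization. In these bulk samples fewer cells of a type and less RNA per cell cannot be told apart.

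Most members had higher values in the low-growth pigs, and the widest differences were those of SOCS3, RSAD2 and IRF1. Of the 53 compared members, 45 were higher in the low-growth pigs and 8 in the high-growth pigs, with a median difference of -0.21. That is 84.9% higher in the low-growth pigs, against 68.0% of all compared rows. An FPKM ratio of at least 1.5 with the higher value in the low-growth pigs was reached by 11 members, against a background of 6.44% of all compared rows. None reached it in the other direction, where the background was 2.78%. A ratio of at least 2 was reached by RSAD2 and SOCS3, both higher in the low-growth pigs, against backgrounds of 2.13% in that direction and 0.838% in the other. The 11 were RSAD2, OAS1, IFI30, IFIT1, MX2, IFI44, IFI35, OAS2, IFIT3, IRF1 and SOCS3, that is 9 effectors, 1 transcription factor and 1 brake. Without the filter on low values 15 of all 61 members reached 1.5-fold in the low-growth direction (background 11.3%) and none in the other (background 7.45%). The deposited intervals of the groups overlapped for all 53 members. Over all rows they did not overlap in 0.462%. RSAD2, IRF1 and IFI44 had each group's value outside the interval of the other group, as did 1.87% of all rows in the same direction. No member did so with the higher value in the high-growth pigs (background 0.666%).

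Among the members MX1 had the highest level, a dynamin-like GTPase that blocks the replication of RNA viruses. It was at 49.8 FPKM (35.9 to 63.8) in the high-growth pigs and 64.3 FPKM (41.6 to 87.0) in the low-growth pigs, above 92.5% of compared rows by its mean. The intervals of STAT3 and JAK1, also among the most abundant members, overlapped that of MX1 in both groups. No pair of neighbours in the order of levels had intervals that stood apart in either group.

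RSAD2, which encodes viperin, an enzyme that makes a chain-terminating nucleotide, had the largest ratio among the effectors that passed the filter on low values. Its level was 2.44 FPKM (1.36 to 3.51) in the high-growth pigs and 5.45 FPKM (2.94 to 7.95) in the low-growth pigs, 2.24 times as high. OAS1 and OAS2 are synthases of the oligoadenylates that switch on RNase L. OAS1 was at 7.50 FPKM (4.12 to 10.9) in the high-growth and 14.2 FPKM (7.40 to 21.0) in the low-growth pigs, and OAS2 at 10.4 and 15.9 FPKM. Both were thus lower in the high-growth pigs, by 0.84 and 0.57 on the log2 scale. After either scaling OAS2 no longer reached 1.5-fold. On Sscrofa10.2 RSAD2 (ENSSSCG00000008648) lies on chromosome 3 (137666395 to 137683529). OAS1 (ENSSSCG00000009882) lies on chromosome 14 in a locus (41230165 to 41288614) that 2 rows share. OASL, at 0.240 and 0.391 FPKM, was below the filter.

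MX2, the second myxovirus resistance gene, was at 5.88 FPKM (3.78 to 7.97) in the high-growth pigs and 9.99 FPKM (5.80 to 14.2) in the low-growth pigs, a ratio of 1.70, whereas that of MX1 was 1.29. MX1 was 8.48 times as high as MX2 in the high-growth pigs and 6.44 times as high in the low-growth pigs. MX1 and MX2 lie beside each other on chromosome 13 of build Sscrofa10.2 (214988891 to 215010264 and 215028064 to 215058979). The GBP genes encode GTPases that attack the vacuoles of intracellular pathogens. GBP1 was at 7.90 against 10.9 FPKM, GBP2 at 9.82 against 10.9 FPKM and the more abundant of 2 GBP6 rows at 2.29 against 2.72 FPKM. None of these 3 reached 1.5-fold, as 6.44% of all compared rows did in the same direction. GBP5 (0.284 and 0.386 FPKM) and the other GBP6 row (0.462 and 0.457 FPKM) were below the filter, and these similar genes, of which GBP5 and GBP6 share 1 locus in the file, may exchange reads.

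IFIT proteins bind foreign RNA ends and block their translation. All 4 IFIT rows, side by side on chromosome 14 (110187209 to 110252240), were higher in the low-growth pigs. IFIT1 was at 6.73 FPKM (3.99 to 9.47) in the high-growth pigs and 11.5 FPKM (6.57 to 16.4) in the low-growth pigs, IFIT2 at 2.94 against 4.23 FPKM, IFIT3 at 6.46 against 9.78 FPKM and IFIT5 at 13.8 against 16.9 FPKM. Their median difference was -0.47, and IFIT1 alone kept 1.5-fold under both scalings. Each of the 4 rows spans a multiple of 3 bases, from 1398 to 1527, and the gene model behind their FPKM was not checked. A reference table of identifiers names the IFIT3 row IFIT1, and the assignment between these similar genes is uncertain. The 5 other compared genes within 250 kb of the IFIT rows were also higher in the low-growth pigs, with a median of -0.46. Of all compared rows 68.0% had that direction. Among them were SLC16A12, with the widest difference, at 2.15 against 4.30 FPKM, and CH25H, an interferon-induced sterol hydroxylase, at 5.08 against 8.76 FPKM. By contrast the 10 compared rows around OAS1 and OAS2 had a median of -0.00082, against -0.70 for the OAS pair. The 2 around IFI44 and IFI44L had -0.021, against -0.50 for that pair. The 5 around the GBP rows had -0.16, near the -0.18 of the GBP rows, and the 1 beside MX1 and MX2 had -0.28, against -0.52.

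IFI44 and IFI44L are neighbours on chromosome 6 (124790063 to 124835978). IFI44 was at 6.63 FPKM (4.26 to 9.01) in the high-growth pigs and 11.1 FPKM (6.69 to 15.4) in the low-growth pigs. IFI44L was higher in level and closer between the groups, at 19.5 against 25.0 FPKM. IFI35 was at 3.26 against 5.48 FPKM. IFI30, a lysosomal thiol reductase that prepares antigens for class II presentation, was at 4.21 FPKM (2.17 to 6.24) against 8.05 FPKM (4.13 to 12). ISG15, the ubiquitin-like modifier, was at 19.2 FPKM (11.4 to 27.0) against 22.4 FPKM (12.4 to 32.4), a ratio of 1.17. The exception to the direction was IFI27L2, at 3.66 FPKM (0 to 7.47) in the high-growth pigs and 3.01 FPKM (0 to 6.24) in the low-growth pigs. The 2 rows named IFITM5 were both at 2.60 FPKM in the high-growth pigs and at 2.76 and 2.67 FPKM in the low-growth pigs, with bounds as wide as 0 to 17.5 FPKM. ISG20, at 0.077 and 0.333 FPKM, was below the filter.

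**Figure D1:**
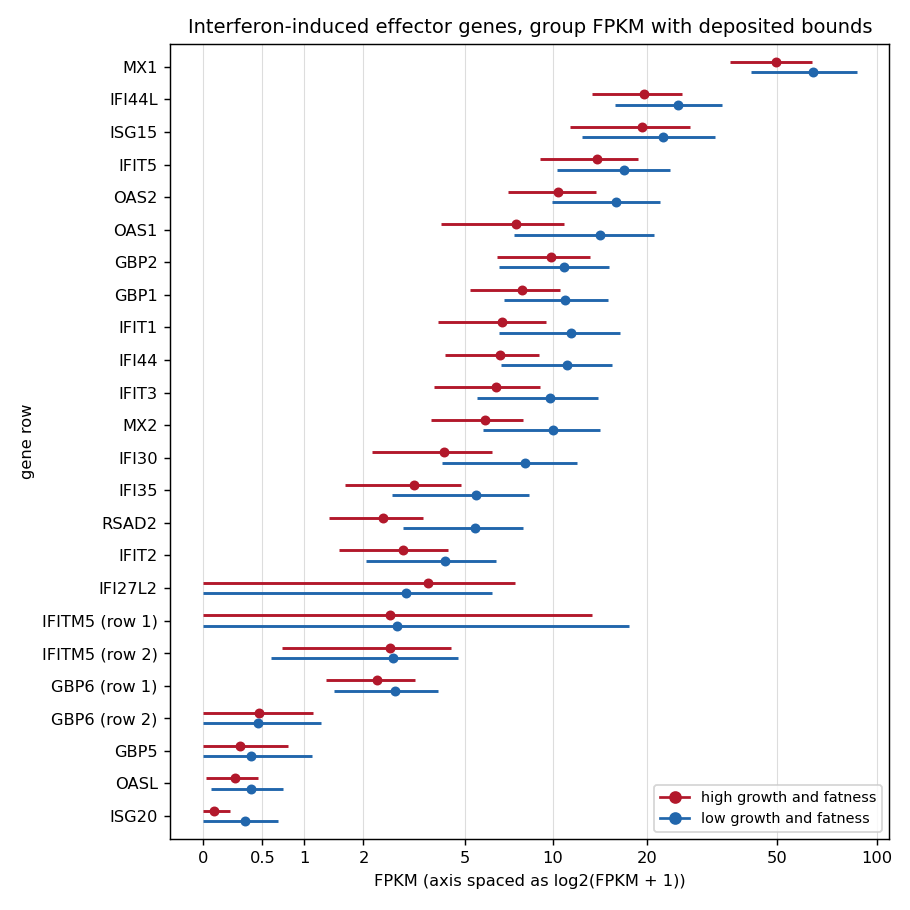
FPKM of the 24 rows of interferon-induced effectors in the high-growth pigs (red) and the low-growth pigs (blue), in order of mean level, with the axis spaced as log2(FPKM + 1). Points are the deposited group values and bars the deposited bounds, which overlap in every row. MX1 is at the top with 49.8 and 64.3 FPKM, and RSAD2 has the widest gap between points among rows above the filter.

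The 2 cytosolic RNA sensors were both higher in the low-growth pigs without reaching 1.5-fold. Of all compared rows 68.0% had that direction and 6.44% reached 1.5-fold in it. DDX58, which encodes RIG-I, was at 6.01 FPKM (4.15 to 7.87) in the high-growth pigs and 8.39 FPKM (5.44 to 11.4) in the low-growth pigs. DHX58, which encodes the regulator LGP2, was at 1.75 against 2.58 FPKM. Rows of the family under other names fall outside the choice by name and were added after their values were seen. MDA5, the sensor whose symbol is IFIH1, was at 1.47 against 2.0 FPKM, and UBP, the ISG15 protease whose symbol is USP18, at 2.83 against 4.24 FPKM. ISG12(A), an interferon-induced gene of the IFI27 family, had a higher level than any member, 65.0 FPKM (45.1 to 84.9) in the high-growth pigs and 109 FPKM (69.2 to 149) in the low-growth pigs. IFNAR1, IFNGR2, IRF4 and PIAS2 were not analysed here.

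Of the IRF transcription factors, IRF1, an activator induced by interferon gamma, had the largest difference. It was at 4.52 FPKM (2.87 to 6.16) in the high-growth pigs and 8.95 FPKM (5.46 to 12.4) in the low-growth pigs, 1.98 times as high. Its gene (ENSSSCG00000014277) lies on chromosome 2 (140228916 to 140252826). IRF8, a factor of microglia and other myeloid cells, had 13.0 FPKM (6.17 to 19.8) against 19.3 FPKM (9.07 to 29.6), and its row lies on an unplaced scaffold. IRF9, the DNA-binding subunit of ISGF3, was at 13.7 FPKM (9.13 to 18.4) against 19.1 FPKM (11.8 to 26.4). IRF7, which amplifies type I interferon production, was low and imprecise at 1.23 FPKM (0 to 2.54) against 1.77 FPKM (0 to 3.63). IRF3, which triggers the same production, was level between the groups at 7.29 and 7.25 FPKM. IRF2 (11.2 and 13.2 FPKM) and IRF5 (4.80 and 5.20 FPKM) had ratios of 1.18 and 1.08, and after median-of-ratios scaling the difference of IRF5 turned positive. Over the 7 compared IRF rows the median was -0.31.

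No receptor or kinase of the pathway reached 1.5-fold without scaling. Of all compared rows 6.44% reached it in the low-growth direction and 2.78% in the other, so none among these few rows is near the background. The median difference was -0.29 over the 2 receptor rows and 0.096 over the 4 kinase rows, against -0.10 over all compared rows. IFNGR1, a chain of the interferon gamma receptor, was at 16.5 FPKM (11.5 to 21.6) in the high-growth pigs and 20.7 FPKM (13.4 to 28.1) in the low-growth pigs. IFNAR2, a chain of the type I receptor, was at 4.99 against 6.20 FPKM, from a row on an unplaced scaffold. JAK1, which serves both receptors, was at 30.6 FPKM (20.9 to 40.3) and 30.5 FPKM (19.2 to 41.8). JAK2, the kinase of the leptin, growth hormone and prolactin receptors, had the higher value in the high-growth pigs, 5.26 FPKM (3.39 to 7.13) against 3.96 FPKM (2.25 to 5.67), a ratio of 1.33 with intervals that overlap widely. TYK2 was also higher in the high-growth pigs, at 12.8 FPKM (6.70 to 19.0) against 11.1 FPKM (3.73 to 18.5), in a locus that the file shares among 10 rows. JAK3 was at 9.60 against 10.2 FPKM, a sign that turned under both scalings.

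No compared STAT row reached 1.5-fold without scaling. Of all compared rows 6.44% reached it in the low-growth direction and 2.78% in the other, so none among 9 rows is near the background. STAT2, a subunit of ISGF3, was at 14.2 against 15.1 FPKM, and its sign turned under both scalings. STAT3, the leptin-responsive member, was at 38.3 FPKM (27.5 to 49.2) against 36.1 FPKM (23.9 to 48.4). STAT5B was at 18.8 against 17.6 FPKM and the more abundant of 2 STAT5A rows at 6.12 against 6.19 FPKM. STAT3, STAT5A and STAT5B lie together on chromosome 12 (20671168 to 20863349). The other STAT5A row had wide bounds, 1.87 FPKM (0 to 3.96) against 1.34 FPKM (0 to 3.30), and passed 1.5-fold, higher in the high-growth pigs, after median-of-ratios scaling. STAT6 was split over 3 rows, between 0.897 and 2.54 FPKM, all higher in the low-growth pigs, and both STAT4 rows were below the filter. With 9 compared rows, STATs had a median of -0.08, close to the -0.10 of all rows.

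SOCS3, a feedback inhibitor that STAT3 induces, had the widest difference of the compared SOCS genes. It was at 1.12 FPKM (0.183 to 2.06) in the high-growth pigs and 3.17 FPKM (0.777 to 5.57) in the low-growth pigs, a ratio of 2.83, the largest among compared members. Its row lies on an unplaced scaffold and spans 690 bases. The other 5 compared SOCS rows had ratios between 1.0 and 1.12. They were SOCS5 (9.58 and 10.2 FPKM), SOCS4 (5.38 and 5.96 FPKM), SOCS7 (3.97 FPKM in both groups), SOCS6 (3.40 and 3.82 FPKM) and SOCS2 (1.58 and 1.74 FPKM), a row that the reference table names CRADD. The signs of SOCS5 and SOCS7 turned under both scalings. SOCS1, the inhibitor most tied to interferon, was below the filter at 0.237 and 0.328 FPKM. PIAS proteins are SUMO ligases that restrain STATs. PIAS4 was at 4.90 against 6.31 FPKM, PIAS3 at 6.87 against 7.61 FPKM and PIAS1 at 7.45 FPKM (0.284 to 14.6) against 7.74 FPKM (0 to 17.4).

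**Figure D2:**
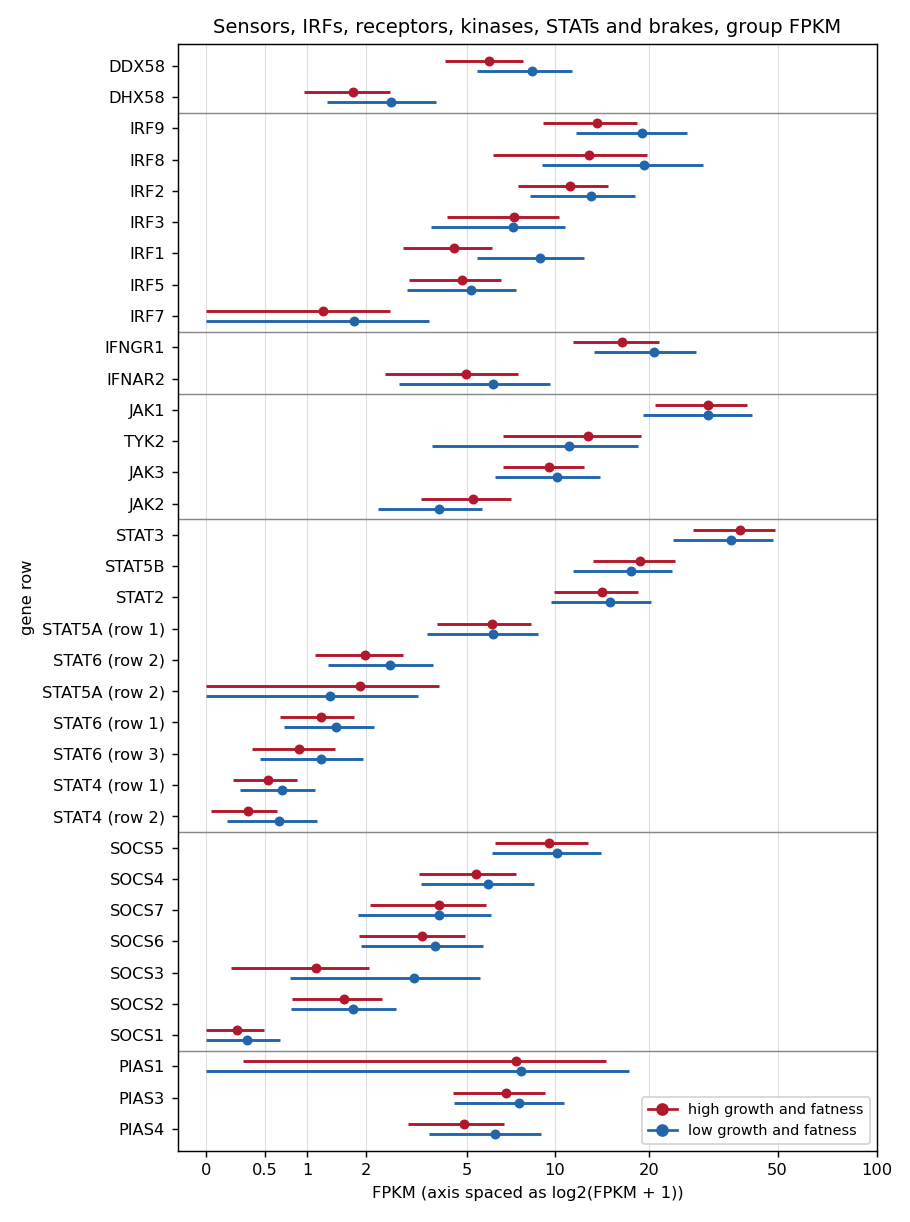
FPKM of 35 of the 37 rows of sensors, IRFs, receptors, kinases, STATs, SOCS and PIAS genes in both groups, with lines between roles, deposited bounds as bars and the axis spaced as log2(FPKM + 1). IRF1 and SOCS3 have the widest gaps between the points of the groups, while JAK1 (30.6 and 30.5 FPKM), IRF3 and SOCS7 lie level.

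By role, 19 of 20 compared effectors were higher in the low-growth pigs, with a median of -0.42, and 9 of the 20 reached 1.5-fold, against 68.0% and 6.44% of all compared rows. The JAK-STAT components (receptors, kinases, STATs, SOCS and PIAS) had 18 of 24 rows higher in the low-growth pigs, a median of -0.08, and 1 row past 1.5-fold, SOCS3, shares near those of all rows. The summed level of all effector rows was 189 FPKM in the high-growth pigs and 259 FPKM in the low-growth pigs, a ratio of 1.37, where the ratio of the sums over all rows was 1.21 and that over all members also 1.21. For the kinases the sums were 58.3 and 55.8 FPKM. After median-of-ratios scaling the effector median was -0.32, with 17 of 20 rows higher in the low-growth pigs while all rows together were split evenly. That of the JAK-STAT components was 0.0078, and so without a direction that holds. Whether the effectors differ from the JAK-STAT components was not tested.

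**Figure D3:**
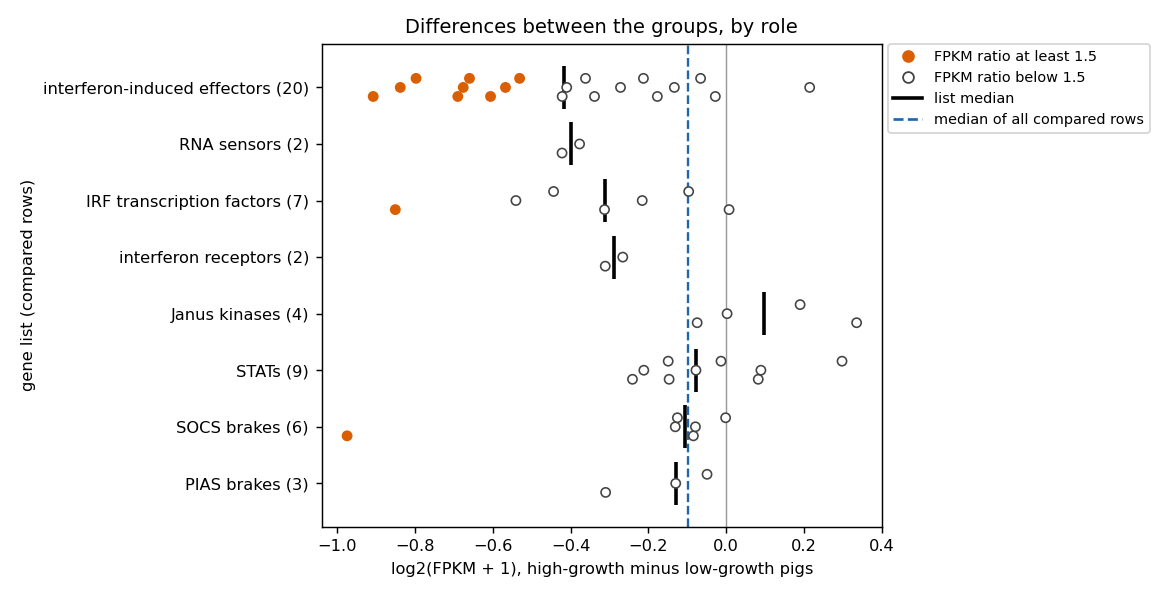
Difference in log2(FPKM + 1), high-growth minus low-growth pigs, for each of the 53 compared members by role. Filled points have an FPKM ratio of at least 1.5, black bars are medians of a role and the dashed line is the median of all compared rows, -0.10. Effectors spread from -0.91 to 0.22, and the kinases lie at or above the dashed line.

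The background difference varied with level. Over all rows of 5 to 10 FPKM the median difference was -0.08 and 66.4% were higher in the low-growth pigs, whereas over rows of 50 to 100 FPKM it was -0.21 and 84.2%. Among the 18 members of 5 to 10 FPKM, 17 were higher in the low-growth pigs, with a median of -0.29. For MX1, in the class of 50 to 100 FPKM, the difference was -0.36. STAT3, JAK1, IFI44L and ISG15 were among those in the class of 20 to 50 FPKM, where the members' median of -0.15 was close to the -0.17 of all rows.

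**Figure D4:**
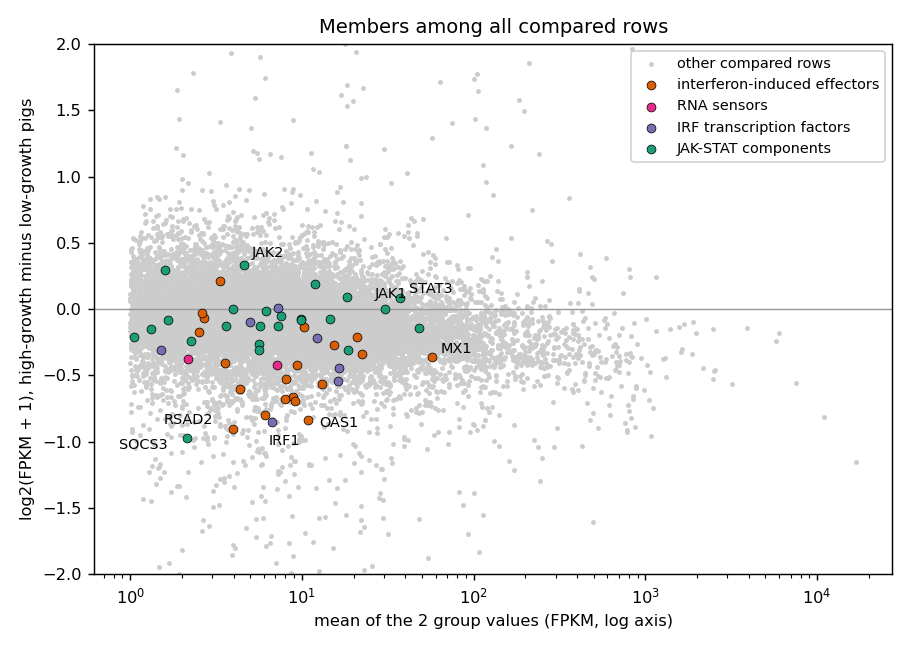
Difference in log2(FPKM + 1), high-growth minus low-growth pigs, against the mean of both groups (log axis) for members by role (coloured) and all other compared rows (grey), of which 61 lie outside the plotted range of -2 to 2. SOCS3, RSAD2, IRF1 and OAS1 are the lowest members, between -0.98 and -0.84, and JAK2 the highest at 0.34.

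Other genes of the pathway, from a list of 110 symbols of which 91 were matched, also had mostly higher values in the low-growth pigs. Of 82 compared rows 74 had that direction, against 68.0% of all compared rows, with a median of -0.24. An FPKM ratio of at least 1.5 was passed by 13 in that direction (background 6.44%) and 1 in the other (background 2.78%). The 38 rows of other interferon-induced genes had a median of -0.35 and 10 of the 13. CXCL10, a chemokine that draws T cells, was at 4.86 FPKM (2.38 to 7.35) in the high-growth pigs and 12.2 FPKM (6.58 to 17.9) in the low-growth pigs. HERC5, the ligase that attaches ISG15, was at 1.36 against 2.89 FPKM and TRIM5, a restriction factor of retroviruses, at 6.03 against 10.4 FPKM. CASP1, SP100, NMI, SAMD9, CXCL9, PARP14 and 1 of 2 PSMB9 rows had ratios from 1.5 to 1.67. Among sensing genes and adaptors (14 rows, median -0.26) the STING gene TMEM173 passed, at 1.22 against 2.06 FPKM. The brakes and helpers of JAK-STAT (14 rows, median -0.15) included the phosphatase PTPN6 at 9.05 against 13.7 FPKM.

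Cytokine receptors that signal through Janus kinases had a median of -0.18 over 16 rows. The interleukin 6 receptor IL6R was at 4.97 against 7.58 FPKM, while its signalling partner IL6ST was level at 16.1 FPKM in both groups. The prolactin receptor PRLR was the row higher in the high-growth pigs by at least 1.5-fold, at 1.95 FPKM (0.969 to 2.94) against 0.912 FPKM (0.295 to 1.53). It lies on chromosome 16 (21539826 to 21558491). The growth hormone receptor GHR was at 3.68 against 3.20 FPKM, and LEPR, which binds leptin, fell below the filter on low values with 0.597 and 1.20 FPKM.

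Interferon genes themselves were scarcely detected. IFNG was at 0.047 FPKM (0 to 0.158) in the high-growth pigs and 0.119 FPKM (0 to 0.303) in the low-growth pigs. The 17 rows named for interferon alpha, omega or delta, added after their values were seen, ranged from 0.040 to 2.71 FPKM in the high-growth pigs and from 0.030 to 2.06 FPKM in the low-growth pigs. Only 2 of the 17 passed the filter on low values. Of the 17 rows 12 had the higher value in the high-growth pigs. The low-growth pigs had the higher value in 68.0% of all compared rows, but in 54.8% of those of 1 to 2 FPKM. No such share was taken below the filter, where most of the 17 lie. The lower bound was 0 for 13 of the 17 in the high-growth pigs and for 15 in the low-growth pigs. These similar genes lie on chromosome 1, several of them in shared loci, and can share reads, so their values are uncertain.

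Markers of microglia, blood leukocytes and endothelium were also higher in the low-growth pigs, the direction of 68.0% of all compared rows. All 13 compared rows of the microglia and macrophage list were higher in the low-growth pigs, with a median of -0.52 and sums of 452 FPKM in the high-growth pigs and 649 FPKM in the low-growth pigs. P2RY12 was at 28.3 against 40.8 FPKM and CX3CR1 at 30.5 against 44.7 FPKM. In the blood leukocyte list 5 of 11 rows passed the filter and all 5 were higher in the low-growth pigs. The sums of the 11 rows were 26.7 and 52.0 FPKM. S100A8 was at 6.33 against 15.5 FPKM and the T cell gene CD3E at 0.866 against 2.32 FPKM, while the B cell genes MS4A1 and CD79B were below 0.17 FPKM in both groups. The 6 endothelial rows had a median of -0.27 and sums of 37.4 and 46.4 FPKM. The part of these cells in the differences of the effectors was not tested.

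Most further lists had the same direction, several of them by more, beside a ratio of 1.21 for the sums over all rows. Fibroblast, mural and meningeal markers summed to 114 FPKM in the high-growth pigs and 285 FPKM in the low-growth pigs over 13 rows, red cell markers to 160 and 392 FPKM, oligodendrocyte markers to 2854 and 4440 FPKM, anterior pituitary markers to 302 and 639 FPKM and choroid plexus markers to 314 and 473 FPKM. Astrocyte (2345 and 2856 FPKM) and neuron (1159 and 1264 FPKM) markers were closer. The 3 compared ependymal rows had a median of 0.084, with sums over the list of 15.3 and 13.9 FPKM. The hypothalamic list summed to 979 and 748 FPKM, with AVP the most abundant gene. In it 8 of 11 compared rows were higher in the high-growth pigs, while 68.0% of all compared rows were higher in the low-growth pigs. The other 3 were NPY (7.25 and 11.9 FPKM, past 1.5-fold), POMC (84.0 and 110 FPKM) and AGRP (7.74 and 8.81 FPKM), which were higher in the low-growth pigs. No marker of these lists with an estimate in both groups was listed at 0. Their part in the members' differences was not tested either.

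**Figure D5:**
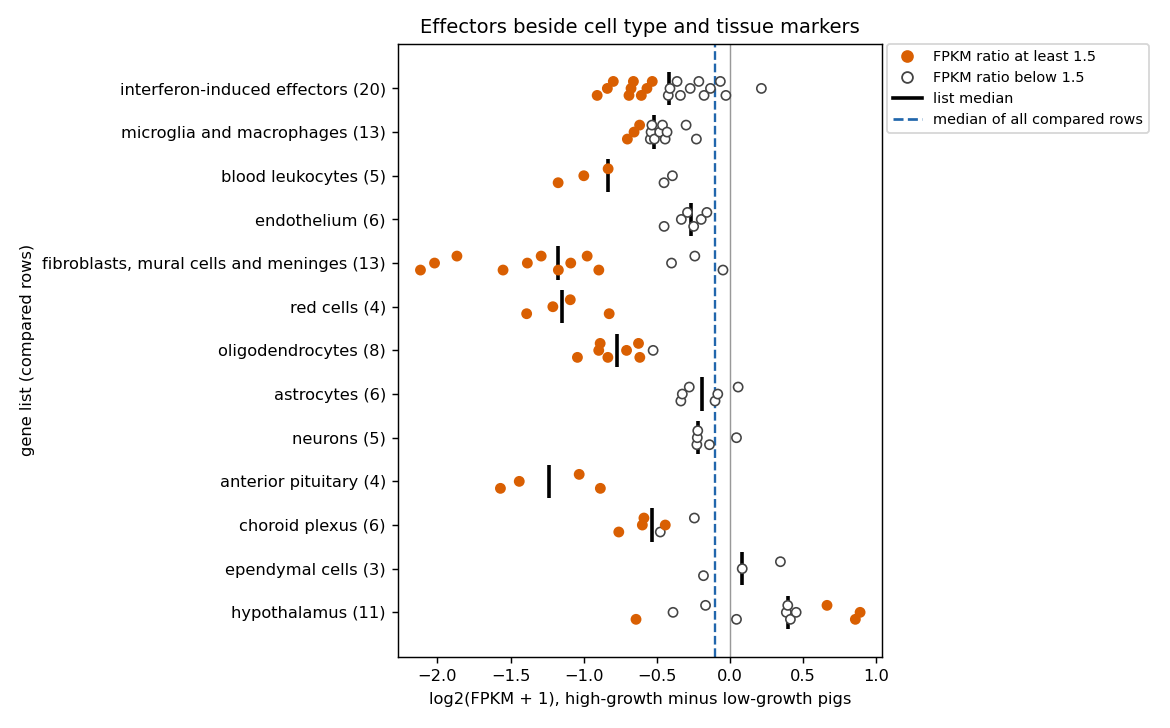
Difference in log2(FPKM + 1), high-growth minus low-growth pigs, of the interferon-induced effectors and of marker genes of cell types and tissues, drawn with filled points for an FPKM ratio of at least 1.5, black bars for medians and a dashed line for all compared rows. The effector median (-0.42) lies between the endothelial median (-0.27) and the microglial (-0.52) and choroid plexus (-0.53) medians. The medians of the hypothalamic (0.40) and ependymal (0.084) lists lie above 0.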

How the data were processed

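Per the submitters' processing notes, CASAVA, FastQC, Trim Galore, TopHat2 2.0.5, Bowtie2 and Cufflinks 2.0.2 were used with the pig build Sscrofa10.2; the role of each, and how the 5 animals of a group were combined, is not given in the sources used here. The authors deposited FPKM, 1 value per gene row and group with 2 bounds of unstated level, per the file headers. The width between the bounds, divided by 2, had a median of 40.1% of the value (high) and 43.2% (low) for compared members. Locus starts count from 0 in the file (8 rows start there) and were raised by 1. The locus can cover several rows, as for 15 members. With Python 3.11.15, numpy 2.4.6 and pandas 2.3.3, rows of status OK, mean of at least 1 FPKM and values above 0 in both groups were compared on log2(FPKM + 1), called at an FPKM ratio of 1.5, and set against all rows. No test over animals could be fitted. Symbols came from the file, or a reference table where it gave none. Every member may be named, but the values of 2 are not reported here; of the other pathway genes those past 1.5-fold were named, at most 20. IL6ST, GHR, LEPR, IFNG, CH25H and SLC16A12 lie outside this rule and were picked once their values had been seen. Alternatives were pseudocounts of 0.1 and 0.5, no filter, a mean of 5 FPKM, both scalings, 1 row per symbol and a ratio of 2. Members, lists and rules were chosen with earlier results of these data known.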

Additional observations from a re-analysis of the deposited data

How the results depend on the processing

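The median difference of the JAK-STAT components (-0.082) turned to 0.0078 after median-of-ratios scaling and 0.026 after quantile normalization. That of all compared members (-0.21) became -0.11 and -0.14, and that of the other pathway genes (-0.24) became -0.15 and -0.16, in the same order. The median of all compared rows (-0.10) became 0.00036 and -0.0026. Under quantile normalization the shift differed between rows. MX1 went from -0.36 to -0.18, but SOCS3 only from -0.98 to -0.94. The effector median (-0.42) ran from -0.53 with a mean of at least 5 FPKM to -0.32 after median-of-ratios scaling. The 11 members at least 1.5-fold higher in the low-growth pigs became 2 at an FPKM ratio of 2 (RSAD2 and SOCS3), with 8 to 15 elsewhere. The count higher in the high-growth pigs, 0, became 1 after median-of-ratios scaling (a STAT5A row). Of the 11, 9 kept the call under every setting in which they were compared, apart from the ratio of 2, and OAS2 and IFIT3 lost it under both scalings. Of 53 members 43 kept their sign. The intervals of the groups overlapped for all members under each setting. The 3 members with each value outside the other interval, a rule added after seeing the data, were 2 after either scaling. Dropping the members on unplaced scaffolds or in shared loci, also added afterwards, left 9 of the 11 and an effector median of -0.48. Leaving out IFITM5, IFI27L2 and IFI30, likewise added afterwards, gave an effector median of -0.48 too. No paired analysis was possible because each group has a single deposited value per gene, and leaving out animals was not run for the same reason. What depth limits was not measured, as no counts were used.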

Other observations

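Among the 17 interferon alpha, omega and delta rows 12 were higher in the high-growth pigs. The low-growth pigs had the higher value in 68.0% of all compared rows, but in 54.8% of those of 1 to 2 FPKM. Sums over the 17 rows were 13.2 FPKM in the high-growth pigs and 9.32 FPKM in the low-growth pigs. Only 2 of the 17 passed the filter on low values, and several share a locus, so these values are uncertain. Next to the STAT5 and STAT3 rows on chromosome 12 lies HCRT, the orexin precursor. It was at 4.16 FPKM (2.03 to 6.29) in the high-growth pigs and 1.78 FPKM (0.556 to 3.01) in the low-growth pigs. The 21 compared rows within 250 kb of these STAT rows and DHX58, HCRT among them, had a median difference of -0.15. Of the 21 rows 13 were higher in the low-growth pigs, against 68.0% of all compared rows, and the rest had the direction of HCRT. HCRT was picked once its values had been seen.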
